A study of Mus musculus with 9 samples.

Results

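The neuropeptide and granin genes were taken from a list of 35 symbols, of which 32 were among the 21457 genes of the deposited matrix. The list holds precursors of secreted neuropeptides and the granins, and 26 peptide precursor genes and 6 granin genes were measured. Ucn3, Npff and Oxt were listed but are not in the matrix. The members were picked by gene function and not by a measured value, though earlier results of these data were known at the time.

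Neuropeptides are made as long precursor proteins that are folded in the endoplasmic reticulum, sorted into dense core vesicles and cleaved there by prohormone convertases before release. Granins are acidic proteins of the same vesicles that take part in vesicle formation, in packing the cargo and in helping the convertases, and several are themselves cleaved to active peptides. In the spinal cord, cholinergic neurons comprise skeletal motor neurons that contract muscle, visceral (preganglionic) motor neurons that drive autonomic ganglia, and interneurons, and peptides released beside acetylcholine act slowly on G protein coupled receptors of the target cells.

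The study sorted nuclei from mouse spinal cord and sequenced their RNA by droplet methods (10x Genomics), to chart the types of cholinergic neuron. Mice were 8 weeks old, of the strain Chat-IRES-Cre::Sun1-sfGFP with the genotype Chat-iCre:+/wt; SUN-SfGFP:+/wt, so that Cre made under the choline acetyltransferase gene switched on a green protein of the nuclear envelope, and nuclei positive for it and for the DNA dye DRAQ5 were collected. Each of 3 pools held 4 mice and was dissected into cervical, thoracic and lumbar/sacral cord, which gave 9 libraries, 3 a region. Pool 1 had 2 males and 2 females, pool 2 had 4 males and pool 3 had 4 females, and no group received a treatment.

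Some features limit what these groups can stand for. The Cre line marks every nucleus whose cell made the enzyme at any time, and 16042 of the 34231 annotated nuclei were labelled cholinergic by the authors; only these are in the matrix. A pool mixes 4 mice, so mice within it could not be compared, and pool, sex and library preparation cannot be told apart. Nuclei hold no peptide and little cytoplasm, so values describe nuclear transcripts and not peptide levels.

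The authors assigned the nuclei to 3 skeletal (S), 10 visceral (V) and 8 interneuron (I) clusters, 21 in all, with 5054 skeletal, 5613 visceral and 5375 interneuron nuclei. The cervical libraries held 2825, 747 and 1420 cholinergic nuclei, the thoracic ones 1538, 1743 and 1630, and the lumbar/sacral ones 2587, 1769 and 1783, each in the order of replicates 1 to 3. In the same order the median total count per nucleus was 7087, 16127 and 10256, then 11077, 9380 and 8276, then 4712, 7175 and 5701. These totals are of counts corrected by a model and not of raw molecules. Levels are given as CPM, the counts of a gene per 1000000 counts of the summed nuclei of a library, for sums of at least 10 nuclei.

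Class names were checked with marker genes. Tns1, a marker of skeletal motor neurons, had a mean of 381 ± 61.3 CPM (SD, n = 9) in skeletal nuclei, 31.3 in visceral nuclei and 5.9 in interneurons. Zeb2 had 387 ± 138 CPM (SD, n = 9) in visceral nuclei, 12.6 in skeletal nuclei and 6.68 in interneurons, and Pax2 had 211 ± 35.3 CPM (SD, n = 9) in interneurons, 7.03 in skeletal nuclei and 3.46 in visceral nuclei. The class means do not hold for every cluster: in V8, Zeb2 had 7.79 ± 3.99 CPM (SD, n = 3) while Fbn2, another visceral marker, had 1172 ± 264, and in I8, Pax2 had 9.55 ± 7.79 CPM (SD, n = 8). Chat, which makes acetylcholine, stood at 283, 206 and 189.7 CPM in skeletal, visceral and interneuron nuclei, while Slc18a3, the vesicular acetylcholine transporter, is not in the matrix.

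Libraries of cervical and thoracic replicate 2 go against their labels. Hoxa9, a Hox gene of thoracic and more caudal cord, had 0.412, 9.68 and 0.213 CPM in the cervical libraries, 9.35, 0.507 and 9.04 in the thoracic ones, and 28.8, 31.8 and 24.4 in the lumbar/sacral ones. Hoxc5 had 25.4, 73.3 and 22.5 CPM in the cervical libraries, 85.3, 13.9 and 84.2 in the thoracic ones, and 93.6, 81.1 and 85.5 in the lumbar/sacral ones. The library labelled cervical replicate 2 thus has thoracic levels and the library labelled thoracic replicate 2 has cervical levels, in all 3 classes. The lumbar/sacral labels are not touched by this: Hoxd11, of the caudal cord, was 0 in all 6 cervical and thoracic libraries and 27.3, 31 and 23 CPM in the lumbar/sacral ones. Xist and Uty matched the labelled sex of each pool. Results are given for the libraries as labelled, and without these 2 libraries where they differ.

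Among the peptide precursors, 3 genes reached a mean of 100 CPM in at least 1 cluster: Sst, Penk and Cartpt. A further count at lower levels gave 8 genes with a highest cluster mean of at least 30 CPM and 11 of at least 10 CPM, of which 1 had its highest mean in a skeletal, 5 in a visceral and 5 in an interneuron cluster. The other 15 stayed under 10 CPM in every cluster as a mean over libraries, among them Trh with a count in 2 nuclei and Avp in 8. Counts were found in at least 1% of all nuclei for 12 of the 26. The heat map of cluster means shows the 15 as dark throughout, Sst as bright in V8 alone, Penk and Cartpt as bright in a few clusters, and the granins as filled across the map.

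**Figure D1:**
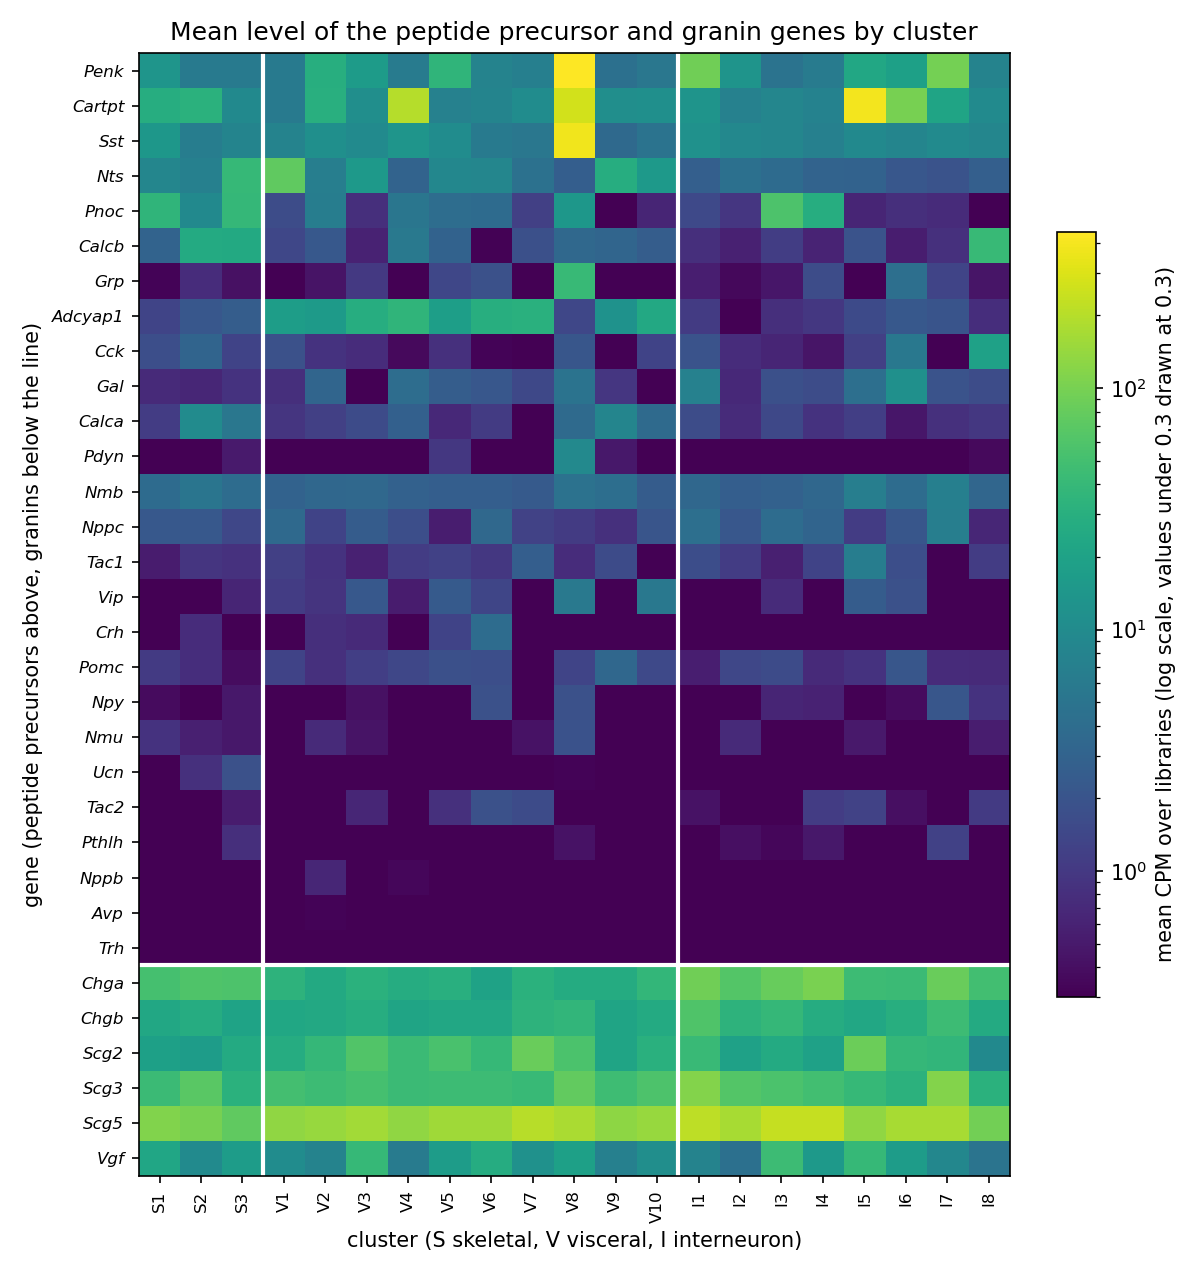
Mean level of the 32 genes (vertical axis) in the 21 clusters (horizontal axis), as colour on a log scale in CPM averaged over libraries. Sst is brightest in V8 at 385 CPM, Cartpt in I5 at 396 CPM, and the granin Scg5 lies between 74.5 and 237 CPM in every cluster.

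Sst encodes somatostatin, an inhibitory peptide that acts on Gi coupled receptors. In cluster V8 it had 346, 324 and 485 CPM in the 3 lumbar/sacral libraries, the only ones with at least 10 nuclei of this cluster, a mean of 385 ± 87 CPM (SD, n = 3). Within lumbar/sacral libraries the next cluster was V4 with a mean of 33.1 CPM, so that V8 was 11.6-fold higher. Over all libraries with enough nuclei the next was S1 with 14.3 CPM. The lowest mean was 3.63 CPM in V9, which was measured in rostral libraries alone and so is not ranked against clusters of all regions. A count of Sst was seen in 78 ± 6.02% (SD, n = 3) of V8 nuclei, against 5.9 ± 4.9% (SD, n = 9) of nuclei of I2, an interneuron cluster with few peptide counts that was chosen for comparison after its values were seen. Here and below, I2 is averaged over all 9 libraries and V8 over lumbar/sacral ones, where I2 had 20.6 CPM of Sst. The median total per nucleus was 4971 in V8 and 7050 in I2, so the V8 nuclei were the shallower ones.

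Penk encodes the precursor of the enkephalins, opioid peptides. It had 338, 657 and 339 CPM in V8 of the 3 lumbar/sacral libraries, a mean of 445 ± 184 CPM (SD, n = 3). The interneuron clusters I7, with 96.7 ± 59 CPM (SD, n = 6), and I1, with 90.9 ± 66.3 CPM (SD, n = 9), came next and did not differ beyond their spread. The share of nuclei with a Penk count was 80.5 ± 11% (SD, n = 3) in V8, and 7.17 ± 5.66% (SD, n = 9) in I2. In lumbar/sacral libraries alone, I2 had a mean of 29 CPM of Penk.

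Cartpt encodes the precursor of the CART peptides, found in many autonomic neurons. In I5 it had 230.3, 635 and 100.4 CPM in the cervical libraries, 259.9, 731 and 464 in the thoracic ones and 133, 596 and 410.0 in the lumbar/sacral ones. The replicate 2 library was highest in each region, and the mean was 396 ± 228 CPM (SD, n = 9). V8 followed with 265, 297 and 257 CPM, a mean of 273 ± 21.2 CPM (SD, n = 3). V4 had 196 ± 160.0 CPM (SD, n = 9), and its spread over all regions overlaps both. In lumbar/sacral libraries alone, V4 had 134 ± 67.2 CPM (SD, n = 3), from 85 to 210.3 and so below every V8 value. I5 had 379.9 ± 233 CPM (SD, n = 3) there. Nuclei with a Cartpt count made up 84.6 ± 16.2% (SD, n = 9) of I5 and 67.5 ± 7.73% (SD, n = 3) of V8, against 5.64 ± 4.86% (SD, n = 9) of I2. The median total of I5 nuclei was 7601.

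Promoters of the members were searched for an element that the cAMP response element binding protein is known to bind. Shown are those of Sst and Cartpt, whose levels the results turn on, and of Scg2 and Chgb, which encode the granins secretogranin II and chromogranin B, all chosen because they hold the element. RefSeq promoters of 300 bases, from 250 before to 50 after the start (build GRCm38.p6), were matched for 26 of the 32 members, and Penk, Pnoc, Calcb, Grp, Crh and Vgf had no entry. The element TGACGTCA, which reads the same on both strands, was in 5 (Sst, Cartpt, Ucn, Scg2 and Chgb), against 588 of 32851 promoters (1.79%). The shorter core TGACG, read on either strand and also part of the element, was in 17 members and in 20.8% of promoters. The 30 bases around the element follow, 5′ to 3′, with capitals for the element, which begins 48 bases before the RefSeq start in Sst, 112 in Cartpt, 68 in Scg2 and 72 in Chgb. The GENCODE annotation starts these genes further upstream, so that all 4 stretches lie inside the annotated genes and are upstream of the RefSeq start only. A match describes these letters and shows no binding. The stretches lie at chr16:23890874-23890903 (minus strand), chr13:99900777-99900806 (minus), chr1:79440076-79440105 (minus) and chr2:132781559-132781588 (plus), in that order.
Sst: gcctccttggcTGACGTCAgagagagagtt
Cartpt: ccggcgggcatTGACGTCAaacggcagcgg
Scg2: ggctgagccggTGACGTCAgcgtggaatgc
Chgb: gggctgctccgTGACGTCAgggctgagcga

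Further precursors, chosen after their values were seen, were lower, and most had no clear top cluster. For Nts, Pnoc, Calca and Gal too, the highest mean overlaps the next within the spread. Adcyap1, which encodes the stimulatory peptide PACAP, had 35.7 ± 16.1 CPM (SD, n = 9) in V4, 30.7 in V7 and 28.9 in V6. These overlap within their spread. V8, measured in lumbar/sacral libraries alone, had 1.4 CPM of Adcyap1. In the same libraries V7 had 34.2, V4 21.4 and V2 4.01 CPM, and V6 had 0 in the 2 with enough nuclei. A count of Adcyap1 was found in 28.2 ± 17.7% (SD, n = 9) of V4 nuclei, with a median total of 8492, in 17.6% after the nuclei were thinned to a total of 4600, and in 0.108 ± 0.324% (SD, n = 9) of I2 nuclei. Nts, the neurotensin precursor, was highest in V1 with 75.5 ± 49.4 CPM (SD, n = 9), and Pnoc, the nociceptin precursor, in I3 with 58.6 ± 30.1 CPM (SD, n = 9). Calcb, which encodes a calcitonin gene-related peptide of motor and sensory neurons, had 41.6 ± 20.8 CPM (SD, n = 8) in I8, 26.4 in S2 and 25.5 in S3, within the spread of one another. Its neighbour Calca was highest in S2 with 10.1 ± 10.6 CPM (SD, n = 9). Grp, the gastrin-releasing peptide precursor, had 27.1, 91.6 and 3.1 CPM in V8 of the 3 lumbar/sacral libraries, which is too uneven for a ranking. Cck, the cholecystokinin precursor, was highest in I8 with 19.4 ± 8.13 CPM (SD, n = 8) and Gal, the galanin precursor, in I6 with 11.7 ± 8.37 CPM (SD, n = 9).

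The number of peptide precursor genes with a count in the same nucleus was taken over the 26. It was highest in V8, with 2.71 ± 0.46 genes per nucleus (SD, n = 3), followed by I5 with 1.33 ± 0.285 (SD, n = 9) and V4 with 1.14 ± 0.494 (SD, n = 9), and in I2 it was 0.319 ± 0.189 (SD, n = 9). In V8, 88.3 ± 7.7% (SD, n = 3) of nuclei had counts of 2 or more precursors. With every nucleus thinned at random to a total of 4600, the means were 2.59, 0.995, 0.794 and 0.205. This left out 8.63% of nuclei that had fewer counts, 44.1% of the library of lumbar/sacral replicate 1 and 13.6% of that of replicate 3 among them. The bar plot of genes per nucleus sets both versions side by side: V8 stands above every other cluster in each.

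**Figure D2:**
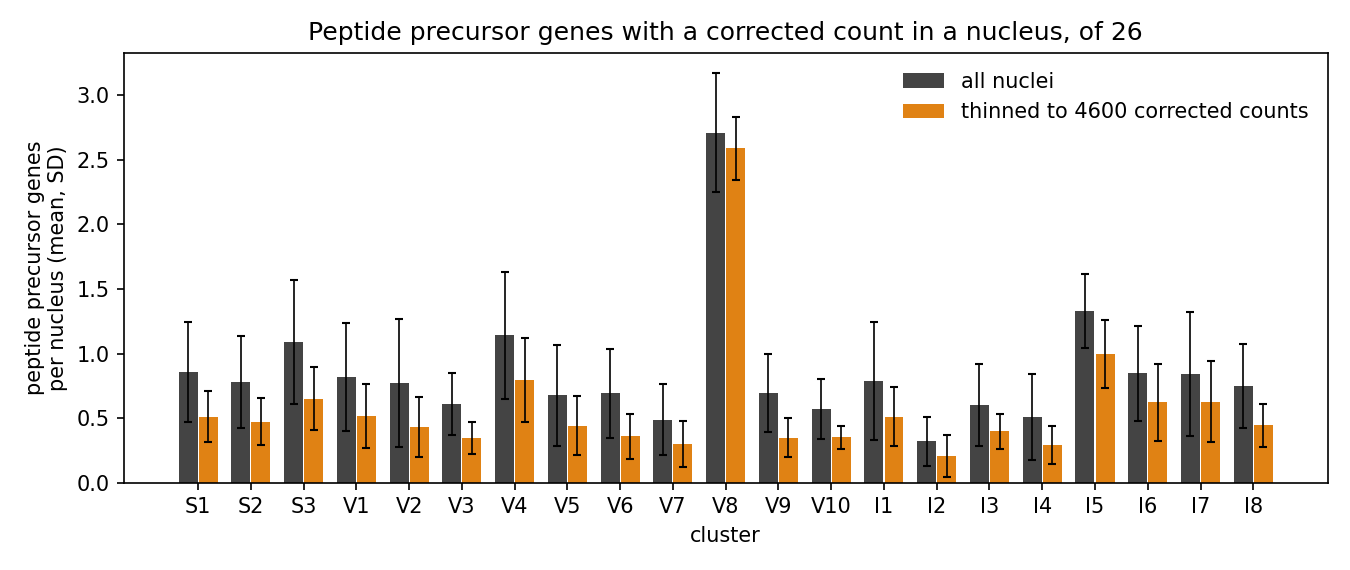
Mean number of peptide precursor genes with a count in a nucleus (vertical axis) for the 21 clusters (horizontal axis), with all nuclei in dark bars, thinned nuclei in orange bars and SD over libraries as error bars. V8 stands at 2.71 genes with all nuclei and 2.59 after thinning.

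All of Sst, Penk and Cartpt were found together in 200 of 467 V8 nuclei. By lumbar/sacral library these were 76 of 225, 68 of 116 and 56 of 122 nuclei, so replicate 2 had the largest share. The median totals of V8 nuclei in these libraries were 4706, 6764 and 5311, so replicate 2 also had the deepest nuclei. The part of depth in the shares with all 3 genes was not tested. Of the other V8 nuclei, 180 had counts of 2 of these genes, 63 of 1 and 24 of none. The pair Sst and Penk was found in 61.9% of V8 nuclei, where the product of both shares is 59.1%, Sst and Cartpt in 52.9% against 49.5%, and Penk and Cartpt in 52.2% against 50.9%. In V4, Adcyap1 and Cartpt were found together in 20.4% of nuclei against a product of 16.3%, and in S3, Pnoc and Nts in 8.17% against 6.74%. Only pairs of genes each found in at least 20% of a cluster's nuclei were counted. Within the 3 lumbar/sacral libraries, the shares of V8 nuclei with Sst and Penk were 53.3%, 76.7% and 65.6% against products of 51.8%, 75.4% and 61.8%, and those with Penk and Cartpt 42.7%, 70.7% and 54.1% against 43.4%, 69.8% and 51.3%, below the product in the first. The pooled shares in V4 and S3 join libraries whose shares differ widely: the pair was below the product in V4 of thoracic replicate 3 (27.3% against 28.1%) and lumbar/sacral replicate 2 (5.56% against 6%), and in S3 of lumbar/sacral replicates 2 (13.9% against 15.2%) and 3 (4.15% against 4.36%). In thinned nuclei the pair in S3 was at 3.3% against 3.22%, and that in V4 at 11.6% against 8.16%. No doublet caller was run, since the values are corrected by a model, while the sort gated single nuclei.

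Class sums of the 9 libraries were compared with limma, a linear model fitted to log2(CPM + 5) for every gene that reached 10 CPM in 3 or more sums, and 13 of the 32 members were tested. A call needed an adjusted p (Benjamini-Hochberg, over the 11292 genes tested) under 0.05 and a log2 fold change of at least 1 either way. Because the classes were drawn by clustering the same nuclei, calls describe the labels and are not an independent test. Visceral against skeletal nuclei, 5 members were called against 11.8% of all genes, with a median log2 fold change of 0.14 over members and 0.04 over all genes; interneuron against skeletal, 4 against 10.7%, with medians of 0.26 and -0.02; and interneuron against visceral, 3 against 7.75%, with medians of 0.30 and -0.05. At an unadjusted p under 0.05 the counts were 8, 10 and 9 members, beside 7806, 7147 and 6394 of the 11292 genes.

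Penk lay between 1.7 and 25.8 CPM (median 4.78) in skeletal libraries, 2.41 and 207 (median 9.71) in visceral ones and 13.2 and 69.6 (median 30.6) in interneurons. The highest visceral values are those of lumbar/sacral cord, and the ranges overlap. The log2 fold change was 1.26 (SE 0.38, adjusted p 0.00581) for visceral and 1.59 (adjusted p 9.9e-04) for interneuron nuclei against skeletal ones. Without a term for the library the first of these was not called.

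Cartpt ranged from 3.08 to 38.5 CPM (median 19) in skeletal libraries, from 1.61 to 117 (median 59.8) in visceral ones and from 18.6 to 154 (median 56.1) in interneurons. Skeletal values sit at the lower end, with overlap. Its log2 fold change against skeletal nuclei was 1.15 (SE 0.31, adjusted p 0.00244) in visceral nuclei and 1.46 (adjusted p 3.4e-04) in interneurons, and the first dropped to 0.99, under the required fold, without the library of lumbar/sacral replicate 1.

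Adcyap1 was between 1.02 and 5.81 CPM (median 1.61) in skeletal, 6.78 and 35.8 (median 23.2) in visceral and 0.442 and 2.37 (median 0.972) in interneuron libraries. Every visceral value exceeded every value of the other classes. Its log2 fold change was 1.85 (SE 0.15, adjusted p 7.9e-10) for visceral against skeletal and -2.05 (adjusted p 3.2e-10) for interneuron against visceral nuclei.

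Nts had 8.9 to 44.8 CPM (median 20.6) in skeletal libraries, 8.71 to 39.9 (median 15.6) in visceral ones and 1.04 to 8.09 (median 2.37) in interneurons. The interneuron values were below all others, with log2 fold changes of -1.68 (adjusted p 5.5e-08) against skeletal and -1.56 (adjusted p 2.7e-07) against visceral nuclei. Calcb had 9.07 to 25.8 CPM (median 19.8) in skeletal, 1.07 to 5.54 (median 2.12) in visceral and 0.79 to 6.22 (median 2.51) in interneuron libraries. As class sums, skeletal values exceeded all others without overlap. Log2 fold changes were -1.67 (SE 0.10, adjusted p 4.1e-12) for visceral and -1.58 (adjusted p 1.2e-11) for interneuron against skeletal nuclei. This does not hold for every cluster: the highest Calcb mean was 41.6 CPM in I8. In lumbar/sacral libraries alone, Calcb had 28 CPM in I8 and 1.8 in S1. Pnoc ranged from 8.14 to 77.2 CPM (median 24) in skeletal and from 0.803 to 10.1 (median 4.55) in visceral libraries, which overlap slightly, a log2 fold change of -1.85 (SE 0.15, adjusted p 8.9e-10).

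The granins were found in all classes. Chga, chromogranin A, had 37.1 to 75.4 CPM (median 53.6) in skeletal libraries, 18.5 to 46 (median 28.4) in visceral ones and 36.7 to 103 (median 80.6) in interneurons. It was the 1 granin called, with a log2 fold change of 1.11 (SE 0.07, adjusted p 1.2e-11) for interneuron against visceral nuclei. Scg5, which encodes 7B2, a chaperone of a prohormone convertase, had 78.7 to 132 CPM (median 92.4), 135 to 171 (median 154) and 171 to 209.7 (median 186) in the same order. These 3 ranges barely meet or do not overlap, yet the log2 fold change of 0.99 (adjusted p 6.0e-12) for interneuron against skeletal nuclei lies just under the required fold. Scg2, the secretogranin II gene, had 9.5 to 42.2 CPM (median 17), 20.1 to 90.1 (median 35.3) and 12.8 to 80.5 (median 28.5), and its log2 fold change of 0.94 (adjusted p 7.1e-10) for visceral against skeletal nuclei also missed the fold. Chgb, chromogranin B, lay between 14 and 52.5 CPM, Scg3, a sorting protein of the vesicle, between 32.7 and 80.9, and Vgf, the precursor of several active peptides, between 9.9 and 28.1 over all libraries and classes. Over clusters the highest mean was 5.05 times the lowest for Chga (I4 and V6), 2.9 for Chgb, 9.06 for Scg2 (I5 and I8), 3.67 for Scg3, 3.18 for Scg5 and 10 for Vgf (I3 and I2). In the plot of granin levels by library, the classes of each gene lie mostly within 1 band, apart from Scg5 and Chga.

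**Figure D3:**
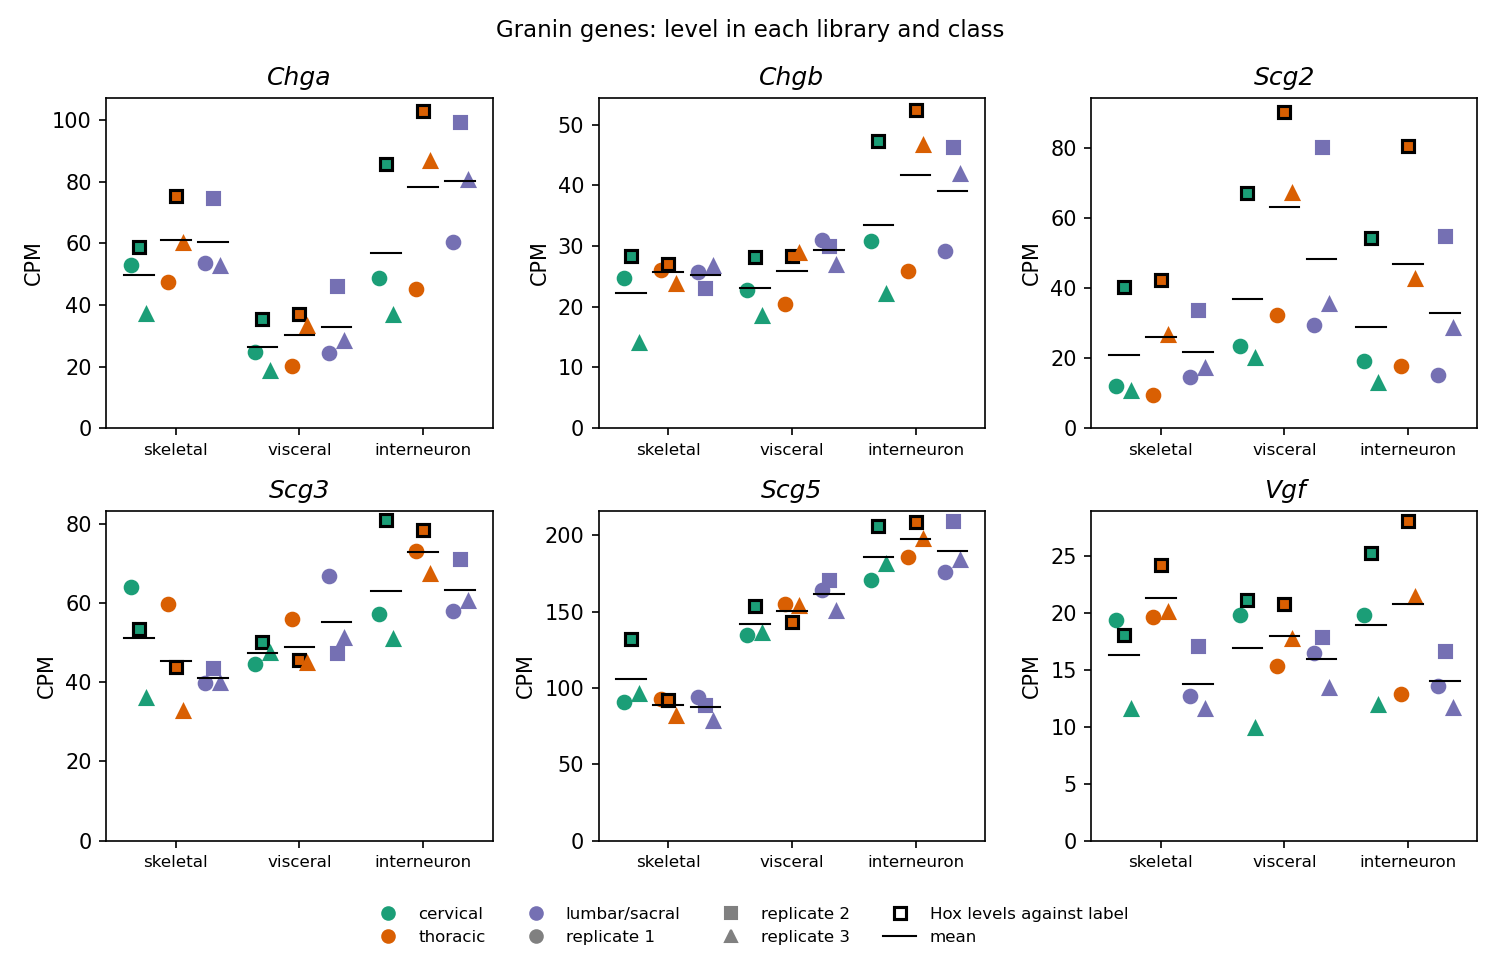
Level of each of the 6 granin genes (CPM, vertical axis) in each library, by class (horizontal axis); colours are regions, shapes are replicates, lines are region means and black outlines mark libraries whose Hox levels go against the label. Chga has its lowest values in visceral nuclei, from 18.5 to 46 CPM, and Scg5 its highest in interneurons, from 171 to 209.7 CPM.

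The peptide processing and vesicle release list had 30 genes, of which 29 were measured and 28 tested. Visceral against skeletal nuclei, 7 rose and 1 fell, beside 11.8% of all genes called, and 25 had an unadjusted p under 0.05, beside 7806 of 11292 genes. Log2 fold changes were 3.87 for Baiap3, 2.43 for Syt9 and -2.65 for Rph3a, which act in vesicle release, and 2.47, 1.93 and 1.82 for the convertase genes Pcsk1, Pcsk5 and Pcsk6. Interneuron against skeletal nuclei, again 7 rose and 1 fell, beside 10.7% of all genes, with Pcsk6 at 3.23, Syt9 at 2.93, Baiap3 at 2.88, Pcsk5 at 2.80, Pcsk1 at 2.74 and Pam, the peptide amidating enzyme, at -2.33. Interneuron against visceral nuclei, 5 rose and 1 fell, beside 7.75% of all genes: Rph3a 2.24, Pam -2.16, Cadps2 1.54, Pcsk2 1.44, Rimbp2 1.43 and Pcsk6 1.42. Among 34 further peptide precursors, 21 were measured and 5 tested, with 3, 2 and 0 called in these comparisons, and 3 at an unadjusted p under 0.05 in the last. These few were Nucb2 at 1.17, Uts2 at -1.90 and Uts2b at -2.53 for visceral against skeletal nuclei and Uts2 at -1.91 and Uts2b at -2.64 for interneuron against skeletal ones, named after their values were seen.

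Lumbar/sacral cord was next set against the mean of cervical and thoracic (rostral) cord, to ask which members differ along the cord, with a call at adjusted p under 0.05. In visceral nuclei 3 of the 11 members tested were called, 2 up and 1 down, against 4.27% of 10031 genes (428, with 233 up and 195 down). The median log2 fold change was 0.17 over members and 0.06 over all genes, and 5 members had an unadjusted p under 0.05, beside 1336 of the 10031 genes. The count over all genes was 267 without the library of cervical replicate 1 and 209, 226 and 276 without each lumbar/sacral library in turn.

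Sst in visceral nuclei had 2.17, 4.86 and 0.803 CPM in cervical, 2.5, 6.65 and 5 in thoracic and 128, 101 and 170.2 in lumbar/sacral libraries. Every lumbar/sacral value was over all others, and as no rostral library reached 10 CPM, Sst was tested through these libraries alone; the means were 133 ± 34.9 CPM (SD, n = 3) and 3.66 ± 2.19 (SD, n = 6). The log2 fold change was 4.00 (SE 0.23, adjusted p 5.1e-05). It was called under every alternative, at 1.69 to 4.97, with adjusted p from 1.8e-05 to 0.00643.

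Penk had 5.29, 9.71 and 2.41 CPM in cervical, 4.78, 18.3 and 4.62 in thoracic and 132, 207 and 119 in lumbar/sacral libraries. The groups do not overlap, with means of 153 ± 47.3 CPM (SD, n = 3) and 7.52 ± 5.79 (SD, n = 6). The log2 fold change was 3.72 (SE 0.34, adjusted p 5.3e-04), with adjusted p from 3.4e-05 to 0.167 over the alternatives.

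Adcyap1 had 23.2, 35.2 and 15.8 CPM in cervical, 26.8, 33.8 and 35.8 in thoracic and 6.78, 11.1 and 13.4 in lumbar/sacral libraries. The lumbar/sacral values lie below all others, at 10.4 ± 3.38 CPM (SD, n = 3) against 28.4 ± 7.99 (SD, n = 6), and fell by 1.10 on the log2 scale (SE 0.23, adjusted p 0.0281). This call was lost without the library of cervical replicate 1 (0.0698), thoracic replicate 2 (0.0592), thoracic replicate 3 (0.0679), or lumbar/sacral replicates 1, 2 or 3 (0.133, 0.0954 and 0.0502). Over all alternatives adjusted p ran from 0.0123 to 0.23. The visceral nuclei lie in different clusters in the 2 groups. V6, among the 3 clusters with the highest Adcyap1 means, held 13, 10 and 7 nuclei in lumbar/sacral libraries. In rostral libraries V6 held 169, 54, 42, 117, 35 and 135 nuclei. Within clusters, Adcyap1 was lower in lumbar/sacral cord in all 7 visceral clusters tested, from -3.05 in V6 to -0.42 in V7 on the log2 scale. It was called in V2 and V6 alone, where it passed the filter through rostral sums alone. How much of the fall cluster make-up accounts for was not tested beyond these fits and leaving out V8 and V9.

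Cartpt had 10.3, 78.3 and 1.61 CPM in cervical, 59.8, 37.4 and 58.2 in thoracic and 102, 117 and 100.0 in lumbar/sacral libraries. Lumbar/sacral values are above the rest, but the rostral values spread widely, and the log2 fold change of 1.72 (SE 0.64, adjusted p 0.251) was not called. Without the library labelled cervical replicate 2 it was 2.23 and called (0.00291), and the alternatives ranged from 0.00291 to 0.993. Without both libraries that go against their labels, Cartpt was called at 2.13 (adjusted p 0.00509), Sst stood at 4.18 and Penk at 4.06, and Adcyap1 at -0.96 was not called (0.0552).

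Nts, named after its values were seen, had 15.6, 31.4 and 14.7 CPM in cervical, 18.4, 39.9 and 32.3 in thoracic and 8.71, 9.78 and 11.4 in lumbar/sacral libraries. Lumbar/sacral values were the lowest, with a log2 fold change of -0.95 (SE 0.26, adjusted p 0.0872) that was not called. With the pool as a block in the fit it was called (0.0241), which made 4 members, against 737 genes or 7.35% of all tested. V1, the cluster with the highest Nts mean, held 23, 26 and 24 nuclei in lumbar/sacral libraries. In rostral libraries V1 held 182, 93, 76, 125, 71 and 178. Within visceral clusters the log2 fold change of Nts was -1.80 in V1, -0.32 in V6, 0.84 in V2 and 0.56 in V3, none called without the block. The part of cluster make-up in the fall of Nts was not tested. The plot of visceral levels by library shows the distance between regions and the spread of Cartpt in rostral cord.

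**Figure D4:**
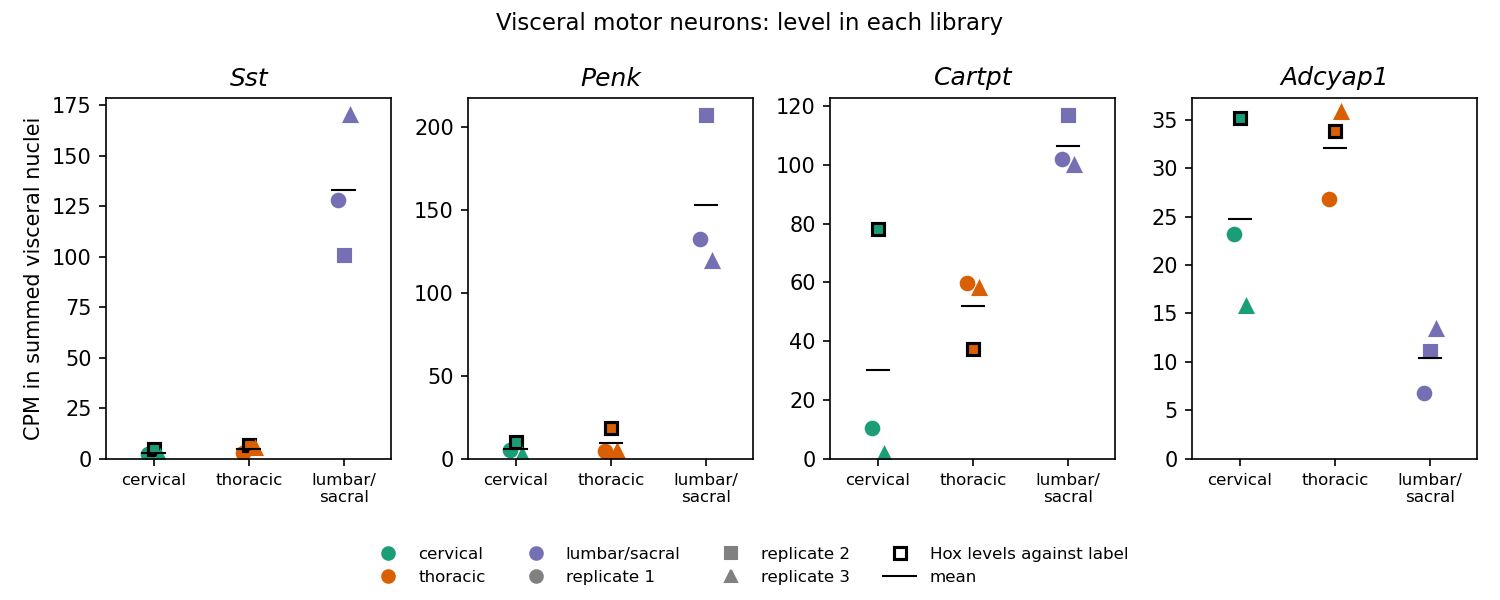
Level of Sst, Penk, Cartpt and Adcyap1 in visceral nuclei (CPM, vertical axis) for each library of the 3 regions (horizontal axis); shapes are replicates, lines are means and black outlines mark libraries whose Hox levels go against the label. Lumbar/sacral values of Sst lie between 101 and 170.2 CPM and those of Adcyap1 between 6.78 and 13.4 CPM.

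Cluster V8, where Sst and Penk peak, was found almost only in lumbar/sacral libraries. It held 225 of 673, 116 of 450 and 122 of 377 visceral nuclei there, 3 nuclei in cervical replicate 1, 1 in the library labelled cervical replicate 2 and none in the other rostral libraries. V9 was rostral, with 39, 37, 17, 63, 26 and 61 nuclei in the rostral libraries and 1, 1 and 2 in the lumbar/sacral ones.

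With V8 and V9 left out, Sst had 1.98, 4.33 and 0.843 CPM in cervical, 2.71, 7.11 and 5.08 in thoracic and 19.9, 25.4 and 21.5 in lumbar/sacral libraries. The groups remained apart, at a log2 fold change of 1.69 (adjusted p 0.00643). Penk had 5.22, 10.7 and 2.25, then 4.94, 19 and 4.8, then 29.6, 54.7 and 14.8 CPM, so that 1 lumbar/sacral library lay within the rostral range, and 1.54 was not called (0.167). Cartpt had 10.6, 85.1 and 1.69, then 63.6, 37.9 and 61.3, then 21.3, 56 and 25.9 CPM, all within the rostral range, at 0.07 (0.993). Adcyap1 had 23.9, 38 and 15.7, then 28, 35 and 37.1, then 8.73, 14.4 and 20 CPM, with overlap, at -0.83 (0.23). Members called were then 1 and genes called 158. In the other 19 lumbar/sacral clusters, Sst means ran from 9.12 CPM in V10 to 33.1 in V4 (median 17.2), Penk from 0 to 86 in I7 (median 14.7) and Cartpt from 3.78 to 379.9 in I5 (median 10.8). Skeletal and interneuron clusters of these libraries thus held Sst near the level left in visceral nuclei, such as S1 with 18.9 CPM and I2 with 20.6. Free RNA in the droplets was not measured, so carry-over from V8 and transcripts of these cells cannot be told apart, and the call without V8 and V9 is not read as expression by other visceral clusters.

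In skeletal nuclei, 0 of 12 members were called, against 0.0100% of 9999 genes, and limma gave 2 members at an unadjusted p under 0.05, beside 402 genes. Sst had 3.91, 7.86 and 2.22 CPM in cervical, 3.05, 13.2 and 8.97 in thoracic and 19.2, 18.7 and 12.1 in lumbar/sacral libraries. Only the library labelled thoracic replicate 2 reached the lumbar/sacral range, and the log2 fold change was 0.97 (adjusted p 0.9). Penk had 4.78, 3.14 and 2.4, then 1.7, 11.8 and 2.11, then 11.2, 25.8 and 9.69 CPM, with overlap in that same library and a log2 fold change of 1.14 (adjusted p 0.9). Median of ratios scaling moved the median of all genes in this comparison from 0.12 to -0.01. In interneurons, 0 of 10 members were called, against 0.0510% of 9805 genes, with 1 at an unadjusted p under 0.05 by limma, beside 331 genes. This was Sst, with 2.53, 6.32 and 0.883, then 3, 8.26 and 8.01, then 16.5, 18.8 and 19.6 CPM, whose groups do not overlap and which no rostral library had at 10 CPM (log2 fold change 1.31, SE 0.26, adjusted p 0.193). Without both libraries that go against their labels, 0 members were called in either class.

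Whether the regional difference depends on the class was tested within libraries, on the log ratio of visceral to skeletal or to interneuron sums. Visceral minus skeletal, 5 of 13 members were called against 5.96% of all genes. Log2 differences were 3.03 for Sst (adjusted p 3.4e-05), 2.58 for Penk (2.8e-05), 1.60 for Cartpt (0.00762), -1.46 for Nts (0.00526) and -0.93 for Adcyap1 (0.0467). Visceral minus interneuron, 5 of 12 members were called against 8.94%, at 2.70 for Sst (1.9e-06), 3.26 for Penk (1.0e-05), 2.25 for Cartpt (0.0165), -0.88 for Nts (0.0154) and -1.03 for Adcyap1 (0.00799). Against interneurons, Sst was tested through lumbar/sacral sums alone, as no rostral sum of either class reached 10 CPM. With no filter it was called against both classes (9.3e-04 against skeletal nuclei and 9.8e-05 against interneurons), and 8 of the 10 differences were called, the exceptions being Adcyap1 against skeletal nuclei (0.104) and Cartpt against interneurons (0.0683). Interneuron minus skeletal, 0 of 12 were called against 0.157%, with 2 at an unadjusted p under 0.05 by limma, beside 1162 of 10833 genes. The plot of log2 fold changes by class shows Sst and Penk far to the right in visceral nuclei alone.

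With V8 and V9 left out of the visceral sums, 3 of these 10 differences were called: Sst and Nts against skeletal nuclei at 0.72 (0.0447) and -1.18 (0.0319), and Penk against interneurons at 1.08 (0.0374), while Cartpt against skeletal nuclei turned to -0.05 (0.969). The others kept their sign and were not called: Penk against skeletal nuclei at 0.41 (0.475), Sst, Cartpt and Nts against interneurons at 0.38 (0.0853), 0.60 (0.564) and -0.60 (0.121), and Adcyap1 at -0.66 (0.316) against skeletal nuclei and -0.76 (0.0976) against interneurons. Without both libraries that go against their labels, 9 of 10 were called, the exception being Adcyap1 against skeletal nuclei at -0.78 (0.0911). That difference was also lost without each of cervical replicates 1 and 2, thoracic replicates 1 and 2 and lumbar/sacral replicates 1, 2 and 3 (0.081, 0.0578, 0.082, 0.0851, 0.215, 0.129 and 0.0589). Without lumbar/sacral replicate 1 both Cartpt differences were lost (0.0525 and 0.09), and without lumbar/sacral replicate 2 that of Nts against interneurons (0.0815). Over all alternatives of the 10 differences adjusted p ran from 1.9e-06 to 0.969.

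**Figure D5:**
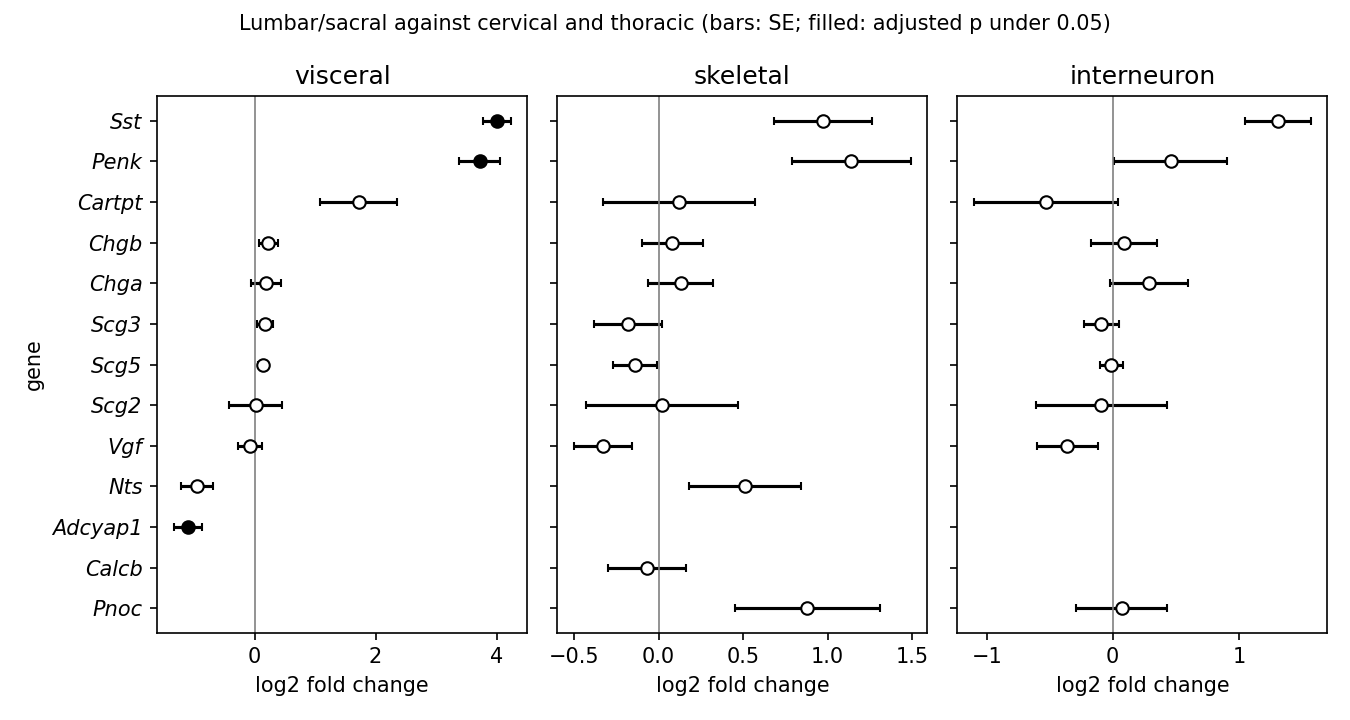
Log2 fold change of lumbar/sacral against cervical and thoracic cord (horizontal axis) for the members tested (vertical axis) in visceral, skeletal and interneuron nuclei; bars are SE and filled points passed adjusted p under 0.05. Sst at 4.00, Penk at 3.72 and Adcyap1 at -1.10 in visceral nuclei are the filled points.

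Of the processing list, 5 of 28 genes were called in visceral nuclei, 2 up and 3 down, beside 4.27% of all genes: the convertase genes Pcsk5 at 2.42, Pcsk6 at -1.40 and Pcsk2 at -0.82, and the synaptotagmin genes Syt10 at 1.84 and Syt9 at -0.89. In skeletal nuclei 0 of 21 and in interneurons 0 of 27 were called, beside 0.0100% and 0.0510% of all genes, with limma giving 2 in each at an unadjusted p under 0.05, beside 402 of 9999 and 331 of 9805 genes; in visceral nuclei there were 13, beside 1336 of 10031.

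Within clusters, the same comparison could be fitted for 18 of the 21, all but V8, V9 and V10, which had fewer than 2 sums on 1 side. Among 169 member tests 8 were called, 5 up and 3 down in 5 clusters, against 1.26% of 178886 tests. All of these calls but that of Sst in V2 passed the filter through the higher side alone, so their number beside this share decides nothing. Sst was tested in 13 clusters and was higher in lumbar/sacral cord in 13, at log2 fold changes from 0.57 to 2.15, with an unadjusted p under 0.05 in 11. Penk was higher in 11 of 12, Adcyap1 lower in 7 of 7, Cartpt higher in 10 of 14 and Nts in 3 of 6, while over all genes tested in a cluster between 38.7% and 76.4% were higher. The filter of 10 CPM in 3 sums fixes part of these directions, so the counts support nothing by themselves. Sst reached 10 CPM in lumbar/sacral sums alone in 7 of its 13 clusters and Penk in 1 of 12, and Adcyap1 in rostral sums alone in 2 of 7.

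In V2, Sst had 1.86, 2.97 and 0, then 4.08, 10 and 6.32, then 23.3, 17.8 and 36 CPM in cervical, thoracic and lumbar/sacral libraries, a log2 fold change of 1.78 (adjusted p 0.027, and from 0.0149 to 0.203 over alternatives). In V3 it had 1.6, 1.85 and 1.61, then 2.59, 5.12 and 4.18, then 17.2, 34.6 and 20.4 CPM, at 1.87 (0.00796, from 0.00509 to 0.093). In V4 the values were 1.32, 1.41 and 6.55, then 0.618, 7.34 and 4.53, then 40.9, 39.9 and 18.3 CPM, at 2.15 (0.00832, from 0.00616 to 0.0654). Lumbar/sacral values lie over all rostral ones in each of these clusters, which called 3.25%, 1.84% and 2.94% of genes. In V3 and V4 Sst was tested only because of its lumbar/sacral sums, as no rostral sum reached 10 CPM, and in V2 1 rostral sum did. Their lumbar/sacral means of 25.7, 24 and 33.1 CPM stand beside 20.2 CPM in I5 and 20.6 in I2 of the same libraries, and here too carry-over of free RNA was not tested. The call in V2 was lost without each of cervical replicates 1 and 2, thoracic replicate 1 and lumbar/sacral replicates 1, 2 and 3 (0.0565, 0.0548, 0.0561, 0.0935, 0.0686 and 0.203) and with a pseudocount of 1 (0.113), that in V3 without lumbar/sacral replicate 2 (0.093) and that in V4 without lumbar/sacral replicates 1 and 2 (0.0549 and 0.0654).

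Penk in I6 had 5.2, 4.7 and 2, then 1.97, 9.33 and 3.38, then 42.8, 80.6 and 22.9 CPM, at 2.41 (adjusted p 0.00712, from 0.00108 to 0.0711). In lumbar/sacral libraries V8 had a mean of 445 CPM of Penk, and the other clusters a median of 14.7. Carry-over of free Penk RNA was not tested. Cck in I6, named for its call after its values were seen, had 1.73, 0 and 0, then 0, 1.33 and 0, then 11.7, 12.6 and 22.9 CPM, at 1.88 (0.0244, from 0.0226 to 0.217). Both reached 10 CPM in lumbar/sacral sums alone, so that being higher there was a condition of being tested, in a cluster where 0.925% of genes were called. The Penk call was lost without lumbar/sacral replicate 2 (0.0711), and that of Cck without cervical replicate 2, thoracic replicate 3 or lumbar/sacral replicates 1, 2 or 3 (0.0539, 0.0558, 0.063, 0.0943 and 0.217) and without both libraries that go against their labels (0.0869) or with a pseudocount of 1 (0.211).

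Adcyap1 in V2 had 27.9, 40.7 and 9.61, then 23.3, 15.1 and 17.7, then 3.58, 4.45 and 4 CPM, lower in each lumbar/sacral library, and tested through its rostral sums alone, and fell by 1.51 (adjusted p 0.041, from 0.0097 to 0.143). This was lost without each library but those of cervical replicate 3 and thoracic replicate 2 (0.0933, 0.0883, 0.101, 0.0654, 0.132, 0.133 and 0.143), and without both that go against their labels (0.0971). In V6, where 11.4% of genes were called, Adcyap1 had 25.3, 45.5 and 21.3, then 31.3, 50.1 and 57.3 CPM in rostral libraries and Vgf had 33.8, 35 and 21.3, then 42.3, 50.1 and 40 CPM. Both were 0 in the 2 lumbar/sacral sums fitted, of 13 and 10 nuclei, and so were tested through rostral sums alone. A count of 0 in 23 nuclei allows up to 13% of nuclei with a count, which does not limit the share that express the gene. A limit of 3 counts over both sums is 23.1 CPM. Against the rostral means of 38.5 and 37.1 CPM, Adcyap1 was thus at least 1.67-fold and Vgf at least 1.61-fold lower in these 2 sums alone. The limit lies above the 21.3 CPM of both genes in cervical replicate 3, so it does not clear the rostral range. The fitted log2 values of -3.05 (adjusted p 0.00207) and -3.04 (0.00115) depend on the pseudocount and are no bound, and 7 nuclei of the library of lumbar/sacral replicate 3, too few to be fitted, held 1 count of Adcyap1 and 2 of Vgf.

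With the pool as a block, 14 member tests within clusters were called, against 1.57% of all tests. The added ones were Nts in V1 at -1.80, Penk in V2 at 2.41, Adcyap1 in V3 at -1.36, Scg2 in V6 at -1.89, and Penk and Sst in I2 at 1.75 and 1.66. Calls dropped to 5 without the library labelled cervical replicate 2, to 2 without lumbar/sacral replicate 1 and to 0 without lumbar/sacral replicate 2; they were 7 without both libraries that go against their labels.

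Thoracic against cervical libraries as labelled, 0 members and 0 genes were called in each class, a share of 0%. By limma 160 visceral, 607 skeletal and 189 interneuron genes and 0 members had an unadjusted p under 0.05. Without both libraries that go against their labels, members called were again 0 in each class, against 0, 0.0100 and 0% of genes in visceral, skeletal and interneuron nuclei, and 1 member in each had an unadjusted p under 0.05, beside 547, 353 and 362 genes. These were Cartpt in visceral nuclei at a log2 fold change of 2.67 (adjusted p 0.0787), which was 1.46 (0.945) as labelled, Cartpt in skeletal nuclei at 1.28 (0.781) and Scg3 in interneurons at 0.35 (0.734). In skeletal nuclei the median of all genes, 0.13, was -0.01 with median of ratios scaling.

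The replicate number, which stands for a pool of mice, moved with many members. In interneurons 9 of 10 members were highest in the replicate 2 library of each region (Penk, Pnoc, Cartpt, Chga, Chgb, Scg2, Scg3, Scg5 and Vgf), against 20.0% of the 9805 genes. In visceral nuclei 4 of 11 (Penk, Chga, Scg2 and Vgf) were, against 18.4%, and in skeletal nuclei 4 of 12 (Pnoc, Cartpt, Chga and Scg2) against 12.7%. Within lumbar/sacral cord alone, free of the libraries that go against their labels, counts were 9 of 10 in interneurons, 6 of 11 in visceral and 8 of 12 in skeletal nuclei, against 40.3%, 36.4% and 35.6% of genes. Replicate 1 was highest in every region for 0 members in each class, against 13.3%, 15.8% and 17.5% of genes, and replicate 3 for 0, against 2.20%, 2.78% and 1.91%. Replicate 2 was lowest in every region for 0 members, against 11.3%, 11.7% and 14.2% of genes in interneuron, visceral and skeletal nuclei. Replicate 1 was lowest for Penk and Scg5 in interneurons, against 15.0% of genes, and for 0 members in visceral nuclei, against 14.8%, and in skeletal nuclei, against 900 of 9999 genes. Replicate 3 was lowest for Penk in visceral nuclei, against 6.22%, for Scg3 in skeletal nuclei, against 5.54%, and for 0 members in interneurons, against 6.06%.

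Penk in interneurons shows this, with 13.2, 46.2 and 13.5 CPM in cervical, 18.3, 58.9 and 30.6 in thoracic and 24.4, 69.6 and 31 in lumbar/sacral libraries. Cartpt in interneurons had 42.8, 114 and 19.2, then 45.7, 154 and 101, then 18.6, 74 and 56.1 CPM. The middle value of each set, replicate 2, is the highest in both genes. Replicate 2 was the all-male pool, and the cause of this order was not tested, since pool, sex and library cannot be told apart.

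Markers of other cell types were summed over all cholinergic nuclei. The microglia list, 3 of 4 genes measured and P2ry12 its most abundant, summed to 6.28, 41.1 and 11.6 CPM in cervical, 6.74, 35.7 and 76.5 in thoracic and 8.44, 44.6 and 96.8 in lumbar/sacral libraries. The highest sums were those of replicate 3 in thoracic and lumbar/sacral cord, while cervical replicate 3 was low. Oligodendrocyte markers summed to 49.9 to 68.8 CPM, astrocyte markers to 1.35 to 5.31, oligodendrocyte precursor markers to 0 to 1.38, endothelial markers to 3.12 to 5.21, ependymal markers to 0.943 to 3.69, those of cerebrospinal fluid contacting neurons to 2.68 to 11.7 and sensory neuron markers to 0.596 to 3. Excitatory markers summed to 637 to 930.4 CPM, mostly from Ebf1, which alone had a mean of 763. The sum thus shows little of the other excitatory markers. Inhibitory markers summed to 100.1 to 162 CPM. These last lists follow the class of the nuclei, with Ebf1 at a mean of 1610 CPM in interneurons, 615 in visceral and 121 in skeletal nuclei and Gad2 at 118, 30.6 and 12.1. The part of any of these lists in the values of the members was not tested.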

How the data were processed

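Nuclei were sorted and sequenced by the authors, who processed reads with Cell Ranger 3.1.0 against mm10 per the submitters' notes and then used Seurat. The deposited matrix holds a model score, SCTransform-corrected counts, in place of raw counts, with class and cluster labels made by the authors. Of the nucleus barcodes, 130 were found in 2 libraries among all annotated nuclei and 33 among the cholinergic ones; none was removed. Counts were summed by library and class or cluster and scaled to CPM. Sums with under 10 nuclei were left out. Comparisons were fitted on log2(CPM + 5) by limma 3.58.1, run under R 4.3.3, with its prior variance following the mean level. Only genes that reached 10 CPM in 3 or more sums were tested, and p was adjusted over all of them by Benjamini-Hochberg. Class fits had the library as a term and region fits had region means. Other steps used Python 3.11.15, numpy 2.4.6, pandas 2.3.3, scipy 1.17.1 and matplotlib 3.10.9, and the fit was tested on simulated data. Intervals and limits from counts cover counting error only.

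Members and lists were chosen with earlier results of these data known. Values in every library are given for members called in lumbar/sacral against rostral cord (at most 10), for members whose highest cluster mean is at least 100 CPM and, as ranges, for the 6 granins. Of the processing list, at most 6 called genes a comparison are named. Any other gene named in the text was chosen after its values were seen.

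Libraries with the same replicate number come from the same pool of mice. Their deviations from the region means correlated with a mean r of 0.52 in visceral, 0.51 in skeletal and 0.56 in interneuron sums, with 7 of 9 such pairs above 0.1 in each class and lowest values of -0.14, -0.22 and -0.19. Libraries with different numbers had means of -0.27, -0.26 and -0.29, with 5 of 18 pairs above 0.1 in each class and highest values of 0.60, 0.58 and 0.61. In visceral sums, the library of cervical replicate 3 correlated with those of thoracic and lumbar/sacral replicate 1 (0.32 and 0.37) and not with those of replicate 3 (-0.14 and -0.01), so its number does not show in these values. Fits with the pool as a block called 4 members in visceral lumbar/sacral against rostral cord and 14 within clusters.

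Alternatives were median of ratios scaling, a pseudocount of 1, no filter, means of scaled nuclei, no library term, the block, a minimum of 25 nuclei, leaving out V8 and V9, thinning to 4600 counts and leaving out each library.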

Additional observations from a re-analysis of the deposited data

Results flagged for a closer look

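For 5 members the lumbar/sacral against rostral log2 fold change differed between visceral nuclei and another class, in a test of the difference itself. Against skeletal nuclei, the visceral value was higher by 2.58 for Penk, 1.60 for Cartpt and 3.03 for Sst, and the difference was -1.46 for Nts and -0.93 for Adcyap1. Against interneurons, it was higher by 3.26 for Penk, 2.25 for Cartpt and 2.70 for Sst, and the difference was -0.88 for Nts and -1.03 for Adcyap1. Without V8 and V9, 3 of the 10 differences were called: Sst at 0.72 and Nts at -1.18 against skeletal nuclei and Penk at 1.08 against interneurons. The others were then 0.41 for Penk, -0.05 for Cartpt and -0.66 for Adcyap1 against skeletal nuclei, and 0.60 for Cartpt, 0.38 for Sst, -0.60 for Nts and -0.76 for Adcyap1 against interneurons. Adcyap1 against skeletal nuclei kept its call under 2 of 12 alternatives. Sst against interneurons was tested through lumbar/sacral sums alone, and was also called with no filter. Carry-over of free RNA within the lumbar/sacral libraries, of Sst, Penk or Cartpt, was not tested. The causes of these differences were not tested.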

How the results depend on the processing

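Of the 466 alternative values computed for single members, 407 kept their direction and their side of the threshold, 56 kept their direction and lost the call, 2 gained it and 1 turned. That 1 was Cartpt, visceral minus skeletal, at -0.05 without V8 and V9. Without V8 and V9, members called in visceral lumbar/sacral against rostral cord went from 3 to 1, and those called in the differences between classes from 10 to 3. With no filter, 8 of these 10 differences were called. Within clusters, the replicate block gave 14 calls in place of 8, and leaving out each library gave 0 to 9. In the fits of region by class, the block moved no count of called members by over 1.5 times and added 1 call, Nts in visceral nuclei, while genes called went from 428 to 737 in visceral, 5 to 44 in interneuron and 1 to 4 in skeletal nuclei; it was not run for the class contrasts or the differences between classes. Thinned nuclei had 0.995 peptide genes in I5 in place of 1.33, 0.347 in V9 in place of 0.694, 0.359 in V6 in place of 0.691 and 0.205 in I2 in place of 0.319. The causes of these changes were not tested. V6 could not be fitted without lumbar/sacral replicate 1 or 2, nor with a minimum of 25 nuclei. Chosen after seeing the data were leaving out both libraries that go against their labels, lumbar/sacral or not as the only term, and all alternatives of the differences between classes. Of 26 precursors 15 were under 10 CPM in every cluster as a mean over libraries. In thinned nuclei the share with a count in the top cluster was 75.4% in place of 78% for Sst and 72.2% in place of 84.6% for Cartpt. It was 17.6% in place of 28.2% for Adcyap1 and 15.2% in place of 27.1% for Calcb. How such shares follow the depth of a library was not tested beyond this thinning.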
